A study of Mus musculus with 9 samples.

Results

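The comparison described here is between mouse ear skin treated with anisomycin and mouse ear skin treated with imiquimod. It used 6 of the 9 arrays of the study, 3 labelled anisomycin treatment and 3 labelled imiquimod treatment, and 19938 genes, 1 probe set each, from a table of 35556 rows. All animals were female C57BL/6 mice of 7 to 9 weeks, and total RNA came from whole ear skin after 5 consecutive days of either drug. Anisomycin was painted daily on both sides of the ear at 2 mg/ml in 99.5% ethanol, 10 µl per side, and imiquimod was given as 10 mg of a 5% cream on the same surfaces. The 3 vehicle arrays served as the level without either drug. The labels do not say which vehicle those mice received or for how long, so each drug and its own base, ethanol or cream, cannot be told apart. The labels number the samples of a group 1 to 3 without saying that each was a separate animal, and if they were not, the p-values refer to technical spread alone.

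Anisomycin is an antibiotic that binds the ribosome and blocks peptide bond formation. Stalled and collided ribosomes are sensed by the kinase ZAK, whose gene is Map3k20, which switches on the p38 and JNK stress kinases, a reaction known as the ribotoxic stress response. Its usual read-outs are immediate early transcription factors of the AP-1 family and the dual-specificity phosphatases that switch the kinases off again. Imiquimod instead activates Toll-like receptor 7 in plasmacytoid dendritic cells and other myeloid cells, which signals through MyD88 to interferon and NF-kB genes. Repeated application of its cream to mouse skin gives a scaly dermatitis, used as a model of psoriasis, in which IL-23, IL-17 and IL-36 cytokines take part.

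Genes of the tissues that make up an ear were present in both groups. The keratinocyte keratin gene Krt14 lay at 12.99, 12.94 and 12.94 with anisomycin and at 12.85, 12.82 and 12.83 with imiquimod on the log2 scale, the collagen gene Col1a1 at 10.43, 10.53 and 10.63 against 10.46, 10.65 and 10.37, the muscle actin gene Acta1 at 9.42, 9.45 and 9.52 against 9.57, 9.78 and 9.04, and the cartilage gene Acan at 7.45, 8.23 and 7.98 against 7.95, 8.08 and 8.06. None of these 4 was called different. Alb, the albumin gene of liver, an organ that an ear does not hold, lay between 4.23 and 4.43 in the 6 arrays and at 4.33, 4.32 and 4.38 in vehicle ears. The anisomycin arrays were the more scattered of the treated groups. The first component of variation carried 74.9% of the variance over all 9 arrays and set both drugs apart from vehicle. Anisomycin replicates 1, 2 and 3 scored 37.0, 35.8 and 30.3 on it, imiquimod replicates 22.1, 19.8 and 21.7, and vehicle replicates -51.7, -61.1 and -53.8. The second component carried 16.8% and held the wider gap between the treatments. On it anisomycin replicates scored 31.1, 19.4 and 9.48, imiquimod replicates -22.6, -23.5 and -24.3, and vehicle replicates -0.955, 9.11 and 2.41. Anisomycin replicate 1 therefore lay farthest from imiquimod and replicate 3 nearest. Each anisomycin array correlated with each imiquimod array at 0.976 to 0.990 over genes, although genes are not replicates.

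**Figure D1:**
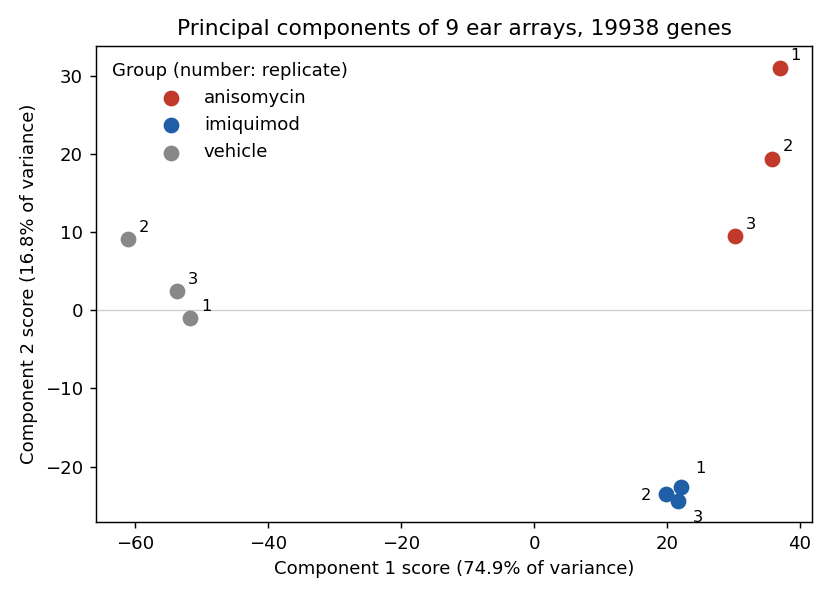
Scores of the 9 ear arrays on the first and second principal components of 19938 genes; each point is 1 array, coloured by group and numbered by replicate. The second component, on the vertical axis, sets the 3 anisomycin arrays, spread from 9.48 to 31.1, apart from the 3 imiquimod arrays, which lie together between -24.3 and -22.6.

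In total 4059 genes, 20.4% of those tested, differed between the treatments at an adjusted p under 0.05 in limma. Of these, 2147 (10.8% of genes) were higher with anisomycin and 1912 (9.59%) higher with imiquimod. A difference of at least 2-fold was met by 184 of the called genes (0.923%) on the anisomycin side and 140 (0.702%) on the imiquimod side. For 39.3% of all genes every array of 1 treatment lay above every array of the other. Median differences were small, 0.01 on the log2 scale over all genes and 0.44 in size over the called genes. Within the 324 genes called with at least a 2-fold difference, the median SD was 0.31 over anisomycin arrays and 0.10 over imiquimod arrays, and anisomycin replicate 1 was the array farthest from imiquimod for 262 of them. The median distance of these genes from the imiquimod mean was 1.60 for anisomycin replicate 1, 1.31 for replicate 2 and 1.02 for replicate 3. The number of called genes fell to 2589 without anisomycin replicate 1, 2548 without anisomycin replicate 2 and 2523, 2547 and 2563 without imiquimod replicates 1, 2 and 3. It rose to 4493 without anisomycin replicate 3. A group with 1 array left out also has fewer arrays on which a call can rest. The number at least 2-fold higher with imiquimod was 84 without anisomycin replicate 1 and 212 without anisomycin replicate 3.

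Members of 60 gene lists are described below by these calls, and a list is named for its known role only. Where no member of a list was called on 1 side, which held for 23 sides, limma gave no member there an unadjusted p under 0.05 on 17 of them, and 3 members at most on the others.

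**Figure D2:**
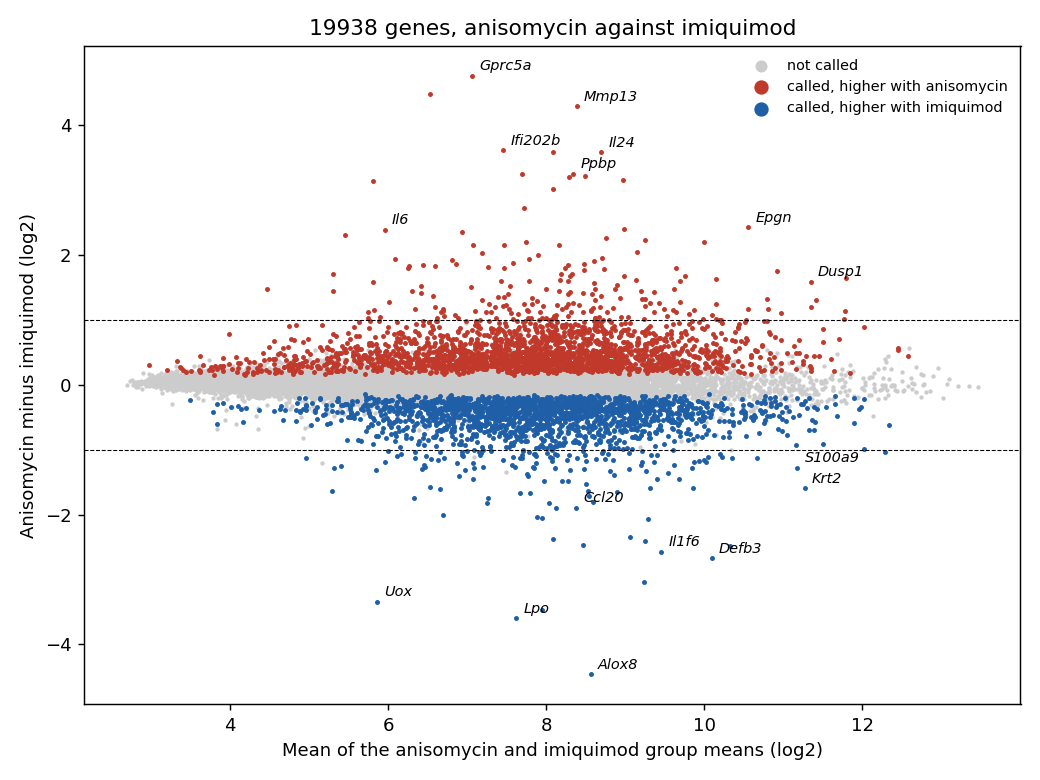
Difference between the anisomycin and imiquimod group means against the mean of those 2 means, for 19938 genes (both axes log2); coloured points are genes called at an adjusted p under 0.05, and dashed lines mark a 2-fold difference. Differences ran from -4.46 (Alox8) to 4.76 (Gprc5a), and 324 called genes lay beyond the dashed lines.

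The 3 largest differences in favour of anisomycin were those of Gprc5a, Tmprss11b and Mmp13. Gprc5a, an orphan receptor gene induced by retinoic acid, read 9.81, 9.36 and 9.15 in the 3 anisomycin arrays, 4.81, 4.49 and 4.76 in the imiquimod arrays and 4.33, 4.54 and 4.16 in vehicle arrays. Its imiquimod arrays stood close to the vehicle level and far below every anisomycin array, a difference of 4.76 (SE 0.17, n = 3 and 3 arrays, adjusted p = 5.92e-07), or 27-fold. The membrane serine protease gene Tmprss11b followed, with 8.96, 8.52 and 8.84 against 4.27, 4.33 and 4.28 (difference 4.48, SE 0.10, adjusted p = 2.29e-08). Mmp13, which encodes a collagenase, read 10.88, 10.65 and 10.04 against 5.94, 6.42 and 6.36, and Inhba, which encodes the subunit of activin A, read 10.31, 9.89 and 9.41 against 6.17, 6.08 and 6.63. In both genes every anisomycin array lay well above every imiquimod array, with differences of 4.29 (SE 0.24) and 3.58 (SE 0.23). The imiquimod arrays of Inhba overlapped the vehicle arrays, which read 6.25, 6.63 and 6.25. Edn1 and Adm, which encode the vasoconstrictor endothelin and the vasodilator adrenomedullin, were 3.24 (SE 0.14) and 3.20 (SE 0.30) higher. For Edn1 imiquimod ears lay at the vehicle level, with differences from vehicle of 3.18 for anisomycin and -0.05 for imiquimod. These 2 values share their vehicle arrays, as all pairs of vehicle differences given here do.

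The remaining genes among the 15 largest differences on this side were the interferon-inducible gene Ifi202b (3.61), the cytokine gene Il24 (3.58), the platelet basic protein chemokine gene Ppbp (3.25), Psca (3.21), which encodes a lipid-anchored surface antigen of epithelia, the retinoic acid synthesis gene Aldh1a3 (3.15), Dynap (3.13), the epithelial transcription factor gene Elf3 (3.01), the Snail family gene Snai3 (2.73) and the EGF receptor ligand gene Epgn (2.43). Standard errors ranged from 0.07 for Aldh1a3 to 0.39 for Dynap, whose anisomycin arrays were the most scattered at 8.50, 7.07 and 6.55. The fit takes 1 variance per gene from all 3 groups, so an SE can understate the spread of a single group. For Dynap the SD was 1.01 over anisomycin arrays, 0.16 over imiquimod arrays and 0.04 over vehicle arrays. Il24 held 1 value, 6.90, in all 3 imiquimod arrays. Such ties occurred in 1.76% of genes over the imiquimod arrays and 1.51% over the anisomycin arrays, and they lower the spread on which a call rests. Leaving out all genes tied within any group left 4036 called genes.

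On the imiquimod side the 3 largest differences were those of Alox8, Lpo and Sprr2b. Alox8, an epidermal lipoxygenase gene, read 10.91, 10.71 and 10.77 with imiquimod against 6.38, 6.28 and 6.34 with anisomycin and 6.06, 5.81 and 5.84 in vehicle ears. The anisomycin arrays stood just above the vehicle arrays, and the difference was -4.46 (SE 0.08, adjusted p = 1.16e-08), or 22-fold. Lpo, the gene of lactoperoxidase, an antimicrobial enzyme of secretions, gave 9.44, 9.39 and 9.42 against 5.96, 5.49 and 6.00 (difference -3.60, SE 0.12). Uox, the gene of urate oxidase, gave 7.60, 7.43 and 7.56 against 4.25, 4.05 and 4.25 (difference -3.34, SE 0.07), and the aldehyde oxidase gene Aox4 10.68, 10.74 and 10.84 against 7.02, 7.80 and 8.34 (difference -3.03, SE 0.32). For each of these 4 genes all imiquimod arrays lay above all anisomycin arrays. The others were the proline-rich envelope gene Sprr2b (-3.47), the beta-defensin genes Defb3 (-2.67) and Defb6 (-2.48), the IL-36 alpha gene Il1f6 (-2.58), the dicarboxylate transporter gene Slc13a3 (-2.46), the secreted Ly6 protein genes Slurp2 (-2.42) and Slurp1 (-2.04), the acid phosphatase gene Acp7 (-2.37), the ribonuclease gene Rnase2b (-2.35), the protease inhibitor gene Stfa3 (-2.06) and the hydrolase gene Abhd12b (-2.06). Sprr2b held 1 value, 6.21, in all 3 anisomycin arrays, and Sprr2, Stfa and Defb genes have close copies whose probe sets can share signal.

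Some of these differences came from 1 treatment leaving the vehicle level and others from both treatments lying on the same side of it to different extents. Slurp1 and Slurp2 were near vehicle with imiquimod, at 0.25 and -0.16 on the log2 scale, and below it with anisomycin, at -1.79 and -2.58. Defb3 was above vehicle with both, by 2.99 with anisomycin and 5.66 with imiquimod. Abhd12b was like the Slurp genes, at -1.92 with anisomycin and 0.14 with imiquimod, and Lpo like Defb3, at 0.86 and 4.46.

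**Figure D3:**
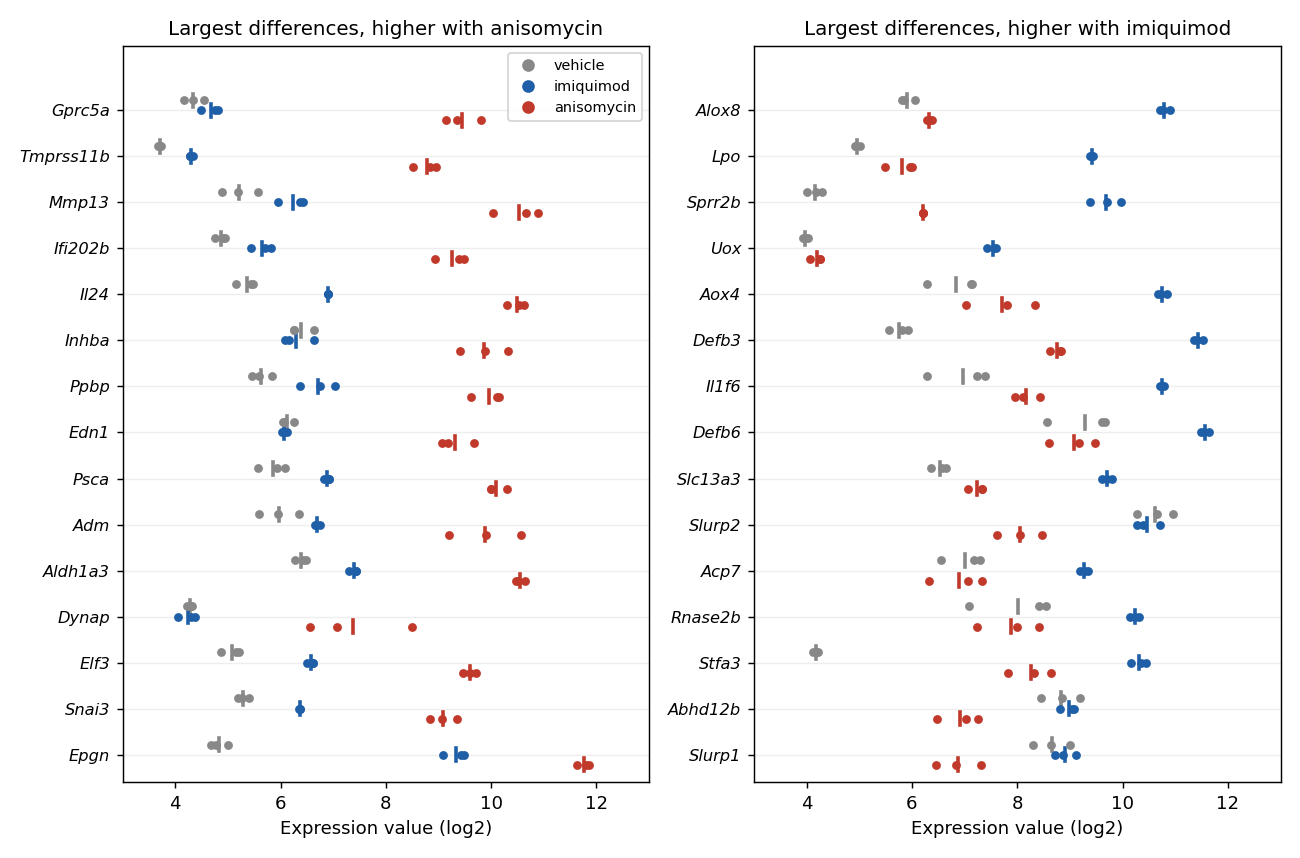
Expression values (log2) of the 15 genes with the largest difference on each side, in 9 arrays; points are single arrays, short vertical bars are group means of 3 arrays. In each of the 30 genes the anisomycin and imiquimod points do not overlap, which the choice of these genes required, while the vehicle points lie near imiquimod for Inhba and Edn1 and near anisomycin for Uox and Rnase2b.

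Because AP-1 is a main output of the stress kinases, the promoters of these genes were searched for 7 short motifs on both strands, in RefSeq sequences of the GRCm38.p6 build that run from 250 bases before to 50 bases after a gene's start. The motifs were AP-1 (TGANTCA), CRE (TGACGTCA), NF-kB (GGANTTTCC), ISRE (GAAANNGAA), CARE (TGATGNAA), CHR (TTTGAA) and CCAAT, none of which contains another. The table held a promoter for 15563 of the 19938 genes, of which 2628 had several starts and were read at the first one listed. The 2 sequences below for Tmprss11b and Sprr2b belong to the largest difference on each side whose promoter was in the table and held a motif, and that of Mmp13 was added after its values were seen because it carries an AP-1 match close to the start. Capitals mark motif matches, and each sequence is written 5′ to 3′ on the gene's own strand.
Mmp13, chr9:7272264-7272563, plus strand: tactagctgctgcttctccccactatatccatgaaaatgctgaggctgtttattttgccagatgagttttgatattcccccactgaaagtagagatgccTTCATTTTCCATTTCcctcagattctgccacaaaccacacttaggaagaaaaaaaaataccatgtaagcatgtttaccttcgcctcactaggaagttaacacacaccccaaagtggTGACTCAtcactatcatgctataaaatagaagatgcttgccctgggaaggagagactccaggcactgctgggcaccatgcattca
Tmprss11b, chr5:86676249-86676548, minus strand: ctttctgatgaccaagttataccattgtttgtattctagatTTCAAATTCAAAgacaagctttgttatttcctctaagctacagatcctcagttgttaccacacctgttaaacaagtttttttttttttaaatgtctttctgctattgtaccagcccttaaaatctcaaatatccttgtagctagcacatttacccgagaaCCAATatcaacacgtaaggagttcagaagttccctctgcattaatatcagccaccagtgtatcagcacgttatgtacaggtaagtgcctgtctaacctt
Sprr2b, chr3:92316455-92316754, plus strand: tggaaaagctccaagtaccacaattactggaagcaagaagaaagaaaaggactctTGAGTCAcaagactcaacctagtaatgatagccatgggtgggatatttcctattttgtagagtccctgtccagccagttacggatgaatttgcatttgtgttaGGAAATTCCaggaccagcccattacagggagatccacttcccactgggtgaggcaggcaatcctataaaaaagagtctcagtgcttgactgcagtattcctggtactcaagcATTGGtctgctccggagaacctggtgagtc
The Mmp13 window holds TGACTCA, the AP-1 motif, at position -35 from the start and overlapping ISRE matches from -151 and -145. The Tmprss11b window holds CHR matches at -209 and -203 and CCAAT at -49. In the Sprr2b window AP-1 begins at -195, NF-kB at -92 and CCAAT at 20. A match is a description of these letters and does not show that a factor binds there.

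The AP-1 motif stood in 16.1% of the 137 promoters of genes called and at least 2-fold higher with anisomycin, and in 16.4% of the 110 promoters of such genes on the imiquimod side, against 6.97% of all 15563. The share was thus alike on both sides and above that of all genes on each. NF-kB motifs were in 5.84% of the anisomycin set, 2.73% of the imiquimod set and 1.32% of all promoters. CRE motifs were in 7 of 137, 0 of 110 and 2.5% of all. ISRE gave 9.49%, 12.7% and 7.93% in the same order, CARE 5.11%, 4.55% and 3.17%, CHR, a motif of cell cycle genes, 13.1%, 23.6% and 15.2%, and CCAAT 35%, 40% and 38.3%. These shares are descriptions of sets chosen by their values and were not tested.

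Most AP-1 and immediate early genes were higher with anisomycin. Of 23 measured, 15 were called higher with anisomycin and 1, Egr3, higher with imiquimod (-0.71, SE 0.17), a call lost without imiquimod replicate 1 or 3. The median difference was 0.58 on the log2 scale against 0.01 over all genes. Atf3, a stress-induced repressor and activator, read 9.81, 9.68 and 9.37 with anisomycin, 8.23, 7.27 and 8.03 with imiquimod and 7.40, 7.33 and 7.27 with vehicle. All anisomycin arrays lay above all imiquimod arrays, and imiquimod replicate 2 was at the vehicle level (difference 1.77, SE 0.22, adjusted p = 0.000876). Fosl1, the AP-1 subunit FRA-1, read 9.28, 9.25 and 8.98 against 7.94, 7.53 and 7.82 (difference 1.41, SE 0.27, adjusted p = 0.00677) and was above vehicle with both treatments, by 3.52 and 2.12. Klf6, a zinc finger factor of injured tissue, was 1.47 higher (SE 0.14), and its imiquimod arrays (8.79, 8.79 and 9.05) lay at or just below the vehicle arrays (9.02, 8.97 and 9.05). The orphan nuclear receptor gene Nr4a3 was 1.14 higher (SE 0.15).

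All called genes of phosphatases that inactivate p38, JNK and ERK were higher with anisomycin. Among 12 dual-specificity phosphatase genes 7 were called higher with anisomycin and none higher with imiquimod, with a median of 0.71. Dusp1, the early p38 and JNK phosphatase, gave 12.19, 12.18 and 12.04 against 10.82, 10.03 and 10.81, with vehicle at 10.05, 9.94 and 10.03. The anisomycin arrays lay close together and far above the highest imiquimod array (difference 1.59, SE 0.18, adjusted p = 0.00066). Dusp10, which acts on p38 and JNK, gave 8.28, 7.73 and 7.34 against 5.92, 6.01 and 5.85, with vehicle between them at 6.84, 7.22 and 6.76. It stood 0.85 above vehicle with anisomycin and at -1.01 with imiquimod, so the treatments lay on opposite sides of the controls (difference 1.86, SE 0.21). Dusp5, an ERK phosphatase, was 1.20 higher (SE 0.09), and Dusp8 0.94 higher (SE 0.12).

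The p38 and JNK list, which holds kinase, activator and effector genes, was called evenly on both sides. Kinase activity was not measured. Of 23 p38 and JNK genes, 4 were called higher on each side, with a median of 0.07, and those higher with imiquimod numbered 2 without anisomycin replicate 1 or imiquimod replicate 2 and 1 without imiquimod replicate 3. Map3k20, the gene of ZAK, read 8.56, 8.56 and 8.67 against 8.62, 8.67 and 8.72 and was not called (difference -0.08, 95% interval -0.23 to 0.08). Intervals here and below are not adjusted for the number of genes, so one can leave out 0 for a gene that was not called. Gadd45b, an activator of the p38 and JNK pathway, was 1.60 higher with anisomycin (SE 0.14), as was Zfp36, an mRNA decay factor phosphorylated downstream of p38, by 0.94 (SE 0.11), and Mapk8, the JNK1 gene, by 0.67 (SE 0.09). Those higher with imiquimod were Mapk13, p38 delta (-0.54), the p38 activator gene Map2k6 (-0.43), the effector kinase gene Mknk2 (-0.42) and Mapk14, and the remaining gene higher with anisomycin was Gadd45g (0.48). Mapk14, p38 alpha, was -0.42 (SE 0.10, adjusted p = 0.0211), a call lost without anisomycin replicate 1 or without imiquimod replicate 2 or 3, with an adjusted p of up to 0.0792. Mapk13 lost its call without anisomycin replicate 1 or 2 or imiquimod replicate 2 or 3 (adjusted p up to 0.067), and Mknk2 without imiquimod replicate 1 or 3 (up to 0.0551).

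Other stress lists were called on different sides. The small heat shock protein gene Hspb1, a substrate of the p38 pathway, read 12.67, 12.62 and 12.56 with anisomycin and 10.82, 11.01 and 11.08 with imiquimod, with vehicle between at 11.86, 11.60 and 11.64 (difference 1.65, SE 0.09, adjusted p = 9.6e-06). It was 1 of 6 cytosolic heat shock genes of 17 called higher with anisomycin, and none was called on the other side. Of 16 p53 targets 5 were called higher with anisomycin, namely the kinase gene Plk2 (1.95, SE 0.17), the death receptor gene Tnfrsf10b (0.87, SE 0.10), the death gene Pmaip1 (0.76), the p53 ubiquitin ligase gene Mdm2 (0.67, SE 0.09) and Ccng1 (0.19). On the other side 1 was called, Zmat3 (-0.25), and that count was 0 without anisomycin replicate 1 or 2 or any 1 imiquimod replicate, 3 without anisomycin replicate 3 and 2 without vehicle replicate 2. NRF2 and glutathione genes were mostly on the imiquimod side, 11 of 21 against 2, with a median of -0.30. Slc7a11, the cystine importer, read 10.62, 10.40 and 10.37 with imiquimod and 9.04, 9.56 and 9.19 with anisomycin, both above vehicle at 4.93, 4.90 and 5.45 (difference -1.20, SE 0.17). The quinone reductase gene Nqo1 was at -0.91 (SE 0.12) and the glutathione transferase gene Gstm1 at -1.08 (SE 0.16), whereas Osgin1, an oxidative stress gene, and the glutathione transferase gene Gsta4 were 0.98 (SE 0.10) and 0.34 (SE 0.06) higher with anisomycin. Ccng1 lost its call without anisomycin replicate 1 or 2 or any 1 imiquimod replicate (adjusted p up to 0.0799).

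Genes of the integrated stress response and the unfolded protein response were split evenly, with 8 of 31 called higher on each side and a median of -0.02. The members on the anisomycin side included Ppp1r15a, the phosphatase subunit GADD34 that ends the response, at 0.89 (SE 0.11), with 8.63, 8.35 and 8.21 against 7.41, 7.44 and 7.66. The imiquimod side held amino acid genes, among them the serine synthesis gene Phgdh, with 7.83, 7.85 and 7.81 against 6.20, 6.71 and 6.78 (difference -1.27, SE 0.16), and the leucine transporter gene Slc7a5 at -0.74 (SE 0.13). Anisomycin arrays of Phgdh overlapped or lay below the vehicle values of 6.93, 7.10 and 6.64 and the imiquimod arrays above them. Without imiquimod replicates 1, 2 and 3 the count on the anisomycin side was 5, 4 and 5.

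Genes of the translation machinery differed modestly. Of 29 ribosome biogenesis genes 9 were called higher with anisomycin and 1, Fbl (-0.22), higher with imiquimod, with a median of 0.14. The former were led by the nucleolar protein gene Nop56 (0.56, SE 0.07). The 9 became 4 without anisomycin replicate 1, 5 without imiquimod replicate 1 and 4 without imiquimod replicate 3, and Fbl lost its call without any 1 of the 3 anisomycin replicates, imiquimod replicates 1 and 2 and vehicle replicate 1, while 2 genes were called on that side without imiquimod replicate 3. Cytosolic ribosomal protein genes lay on the other side, with 17 of 55 called higher with imiquimod and none higher with anisomycin, and a median of -0.17. Rps12 (-0.50, SE 0.10) and Rpsa (-0.50, SE 0.07) differed most, with Rpsa at 10.24, 10.44 and 10.50 against 10.98, 10.89 and 10.82 and vehicle at 10.61, 10.58 and 10.60. Ribosomal protein genes have many processed copies, so single probe sets are uncertain. Among 30 initiation and elongation factors 9 were called higher with anisomycin, led by Eif1a (0.65, SE 0.09), which held 1 value in all 3 imiquimod arrays, and 3 higher with imiquimod. These were 2 repressors of cap-dependent initiation, Eif4ebp2 (-0.58, SE 0.10) and Eif4ebp1 (-0.34, SE 0.07), and the elongation factor kinase gene Eef2k (-0.66, SE 0.17). Eef2k lost its call without anisomycin replicate 1 or 2 or any 1 imiquimod replicate (adjusted p up to 0.0795).

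Matrix remodelling genes were more often called higher with anisomycin than with imiquimod. Of 27 genes of the matrix metalloproteinase and plasminogen activation list, 15 were called higher with anisomycin and 3 higher with imiquimod, with a median of 0.37. The list also holds Hmga2, a gene of neither kind, which was 1 of the 15. Those 15 ranged from 11 to 17 when 1 array was left out, and the 3, Mmp8 (-0.79), Mmp2 (-0.17) and the inhibitor gene Timp2 (-0.25), became 1 without anisomycin replicate 1 or 2 or imiquimod replicate 1 or 2. Besides Mmp13, the collagenase gene Mmp1b gave 6.45, 6.87 and 6.49 against 4.10, 4.39 and 4.39 (difference 2.31, SE 0.13), although its signal can mix with that of its close copy Mmp1a. Hmga2, a chromatin protein of growing and migrating cells, gave 9.36, 8.66 and 8.50 against 6.68, 6.75 and 6.51, and its imiquimod arrays lay within the vehicle range of 6.59, 6.89 and 6.65 or just below it (difference 2.19, SE 0.19). F3, tissue factor, the trigger of coagulation, read 10.08, 9.88 and 9.50 with anisomycin and 7.97, 8.17 and 8.28 with imiquimod. The vehicle arrays, at 9.40, 8.81 and 9.20, lay between the treated groups (difference 1.68, SE 0.18, adjusted p = 0.000437). Mmp2 lost its call without any 1 treated array or vehicle replicate 1 (adjusted p up to 0.137), and Timp2 without anisomycin replicate 1 or 2 or imiquimod replicate 1 or 2 (up to 0.0712).

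EGF receptor ligands were not uniform. Of 18 genes of the EGF receptor list, 7 were called higher with anisomycin and 4 higher with imiquimod, or 2 without imiquimod replicate 3. Epgn, the ligand epigen, read 11.85, 11.80 and 11.64 against 9.49, 9.09 and 9.44, both above vehicle at 5.00, 4.68 and 4.78 (difference 2.43, SE 0.12, adjusted p = 4.81e-06). Nrg1, a neuregulin that binds the related receptors ERBB3 and ERBB4, gave 9.48, 9.14 and 8.95 against 7.31, 7.37 and 7.38 (difference 1.84, SE 0.12), and the feedback gene Phlda1 was 1.80 higher (SE 0.15). Ereg, epiregulin, pointed the other way, at 7.80, 7.73 and 8.18 with imiquimod against 7.17, 6.91 and 7.09 with anisomycin (difference -0.84, SE 0.18), where the anisomycin arrays lay within the vehicle range of 7.05, 6.46 and 7.15 or close to it. The others higher with imiquimod were the receptor genes Erbb3 (-0.70) and Erbb2 (-0.62) and the feedback inhibitor gene Spry1 (-0.46). Erbb3 lost its call without imiquimod replicate 3 (adjusted p up to 0.0526), and Spry1 without anisomycin replicate 1 or 2 or imiquimod replicate 1 or 3 or vehicle replicate 3 (up to 0.113).

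Cytokine genes of 1 family differed in opposite directions. Il24, an IL-20 family cytokine of keratinocytes, read 10.52, 10.63 and 10.30 with anisomycin, 6.90 in each imiquimod array and 5.44, 5.48 and 5.15 in vehicle arrays (difference 3.58, SE 0.10, adjusted p = 1.67e-07). Its relative Il19 showed the reverse, with 7.24, 7.13 and 7.18 under imiquimod and 6.10, 6.18 and 6.14 under anisomycin (difference -1.04, SE 0.08, adjusted p = 6.85e-05). For both genes the arrays of the groups were well apart and each treatment lay above vehicle. Of 9 IL-20 family genes 2 were called higher with anisomycin and 4 higher with imiquimod. The receptor subunit gene Il10rb (0.58) stood with Il24, and the receptor subunit genes Il20rb (-0.96, SE 0.15) and Il22ra1 (-0.61) and the cytokine gene Il20 (-0.39) stood with Il19. The 4 became 2 without anisomycin replicate 2 or imiquimod replicate 3. Il22ra1 lost its call without anisomycin replicate 1 or 2 or imiquimod replicate 2 or 3 (adjusted p up to 0.0668), and Il20 without anisomycin replicate 2 or imiquimod replicate 1 or 3 (up to 0.0728).

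**Figure D4:**
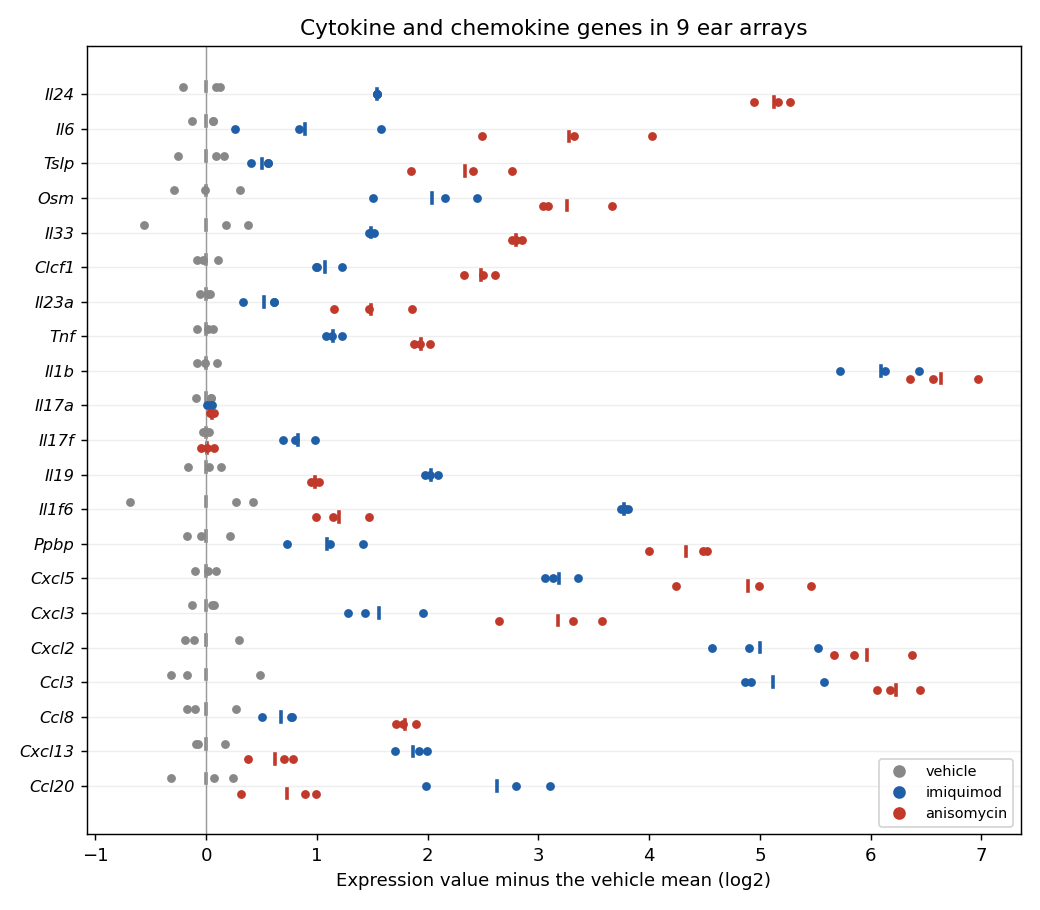
Expression values of 21 cytokine and chemokine genes in 9 arrays, each minus the gene's vehicle mean (log2); points are single arrays and short vertical bars are group means of 3 arrays. Il24, Il6, Tslp and Ppbp stand higher with anisomycin, Il19, Il17f, Il1f6, Cxcl13 and Ccl20 higher with imiquimod, and Il17a lies at the vehicle level in both groups.

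Several genes of signalling through the gp130 receptor were higher with anisomycin. Il6 read 7.90, 7.20 and 6.36 with anisomycin and 5.45, 4.13 and 4.71 with imiquimod, against 3.75, 3.94 and 3.93 in vehicle ears. The groups did not overlap but both were widely spread, anisomycin replicate 3 being lowest in its group and imiquimod replicate 1 highest in its own (difference 2.39, SE 0.39, adjusted p = 0.00334). Clcf1, a ligand of the ciliary neurotrophic factor receptor, was tighter, at 8.99, 9.10 and 8.82 against 7.72, 7.49 and 7.49 (difference 1.40, SE 0.09), and Osm, oncostatin M, gave 8.85, 9.43 and 8.81 against 7.92, 7.28 and 8.21 (difference 1.23, SE 0.26). In all 8 of 17 gp130 genes were called higher with anisomycin and none higher with imiquimod, a count that was 5 without anisomycin replicate 1, anisomycin replicate 2 or imiquimod replicate 2.

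Called genes of the type 2 and alarmin list and of the TNF family were mostly higher with anisomycin. Tslp, thymic stromal lymphopoietin, an epithelial cytokine that primes type 2 responses, gave 7.02, 7.57 and 7.93 against 5.57, 5.73 and 5.72, with vehicle at 5.26, 4.91 and 5.32 (difference 1.83, SE 0.20, adjusted p = 0.000527). Here anisomycin replicate 3 was the highest array and replicate 1 the lowest, the reverse of most large differences. Il33, a nuclear alarmin, gave 11.40, 11.50 and 11.44 against 10.12, 10.16 and 10.12 (difference 1.31, SE 0.19), and the receptor gene Il4ra was 0.89 higher (SE 0.08). With the itch cytokine receptor gene Il31ra (0.48) and the arginase gene Arg1 (0.62) they made 5 of 19 type 2 and alarmin genes called higher with anisomycin, with none called higher with imiquimod. These 5 were 26.3% of the list, against 20.4% of all genes called on either side and 10.8% called higher with anisomycin. The median difference of the list was 0.05, with 10 members above 0 and 9 below. Tnf read 8.41, 8.33 and 8.27 against 7.62, 7.47 and 7.53 (difference 0.80, SE 0.06, adjusted p = 0.000109), and of 28 TNF superfamily and NF-kB feedback genes 11 were called higher with anisomycin, among them the NF-kB inhibitor gene Tnfaip3 (1.24, SE 0.16) and the adaptor gene Traf1 (1.17, SE 0.15). The 1 gene of that list higher with imiquimod, the receptor gene Tnfrsf1a (-0.21), lost its call without anisomycin replicate 1 or 3 or imiquimod replicate 1 or 3. Il31ra lost its call without anisomycin replicate 2 or imiquimod replicate 2 (adjusted p up to 0.0626).

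The IL-17 and IL-23 axis was called more often on the imiquimod side, with 9 of 22 genes called higher there and 2 with anisomycin, and a median of -0.03. Ccl20, the chemokine that draws CCR6-bearing IL-17 producing cells, read 9.49, 8.68 and 9.80 with imiquimod against 7.01, 7.59 and 7.69 with anisomycin and 6.77, 6.38 and 6.94 in vehicle ears (difference -1.90, SE 0.29, adjusted p = 0.00245). Zc3h12a, the ribonuclease Regnase-1 that restrains IL-17 signalling, gave 9.37, 9.20 and 9.24 against 7.58, 7.87 and 7.76 (difference -1.53, SE 0.10), and Il22ra2, a soluble decoy receptor for IL-22, gave 5.91, 5.84 and 6.12 against 4.30, 4.71 and 5.00 (difference -1.29, SE 0.16). Il17f stood at 6.54, 6.36 and 6.25 with imiquimod, while its anisomycin arrays, at 5.63, 5.51 and 5.56, were level with vehicle at 5.56, 5.53 and 5.58 (difference -0.81, SE 0.07). Il17a was between 5.10 and 5.27 in all 9 arrays and was not called (difference 0.02, 95% interval -0.10 to 0.14). Il23a, the IL-23 subunit gene, was with the receptor gene Il17ra (0.59) higher with anisomycin, at 6.67, 7.37 and 6.98 against 6.13, 5.84 and 6.13 (difference 0.97, SE 0.16, adjusted p = 0.0031).

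IL-1 and IL-36 family genes gave 5 of 18 called higher with anisomycin and 4 higher with imiquimod. Il1f6, IL-36 alpha, read 10.71, 10.78 and 10.75 with imiquimod against 7.96, 8.11 and 8.44 with anisomycin and 7.39, 6.28 and 7.24 in vehicle ears, so the imiquimod arrays lay far above the highest anisomycin array (difference -2.58, SE 0.25, adjusted p = 0.000296). Il1f5, the gene of the IL-36 receptor antagonist (-1.12), the inflammasome adaptor gene Pycard (-1.18, SE 0.17) and the caspase-1 gene Casp1 (-0.37) were also higher with imiquimod. The inflammasome sensor gene Nlrp3 (1.30, SE 0.23), the decoy receptor gene Il1r2 (0.94), the IL-18 receptor genes Il18rap (0.63) and Il18r1 (0.29) and Il33 were higher with anisomycin. Il1b read 10.99, 11.40 and 10.79 against 10.55, 10.15 and 10.87 and Il1a 9.40, 9.76 and 9.53 against 9.32, 9.28 and 9.48. The groups overlapped for both, and neither was called (95% intervals of the difference 0.11 to 0.96 and -0.28 to 0.68). Il18rap lost its call without anisomycin replicate 1 or 2 or any 1 imiquimod replicate (adjusted p up to 0.0776).

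Most chemokines for neutrophils and monocytes were higher with anisomycin. Ppbp read 10.11, 10.15 and 9.62 with anisomycin and 6.74, 7.04 and 6.36 with imiquimod (difference 3.25, SE 0.19, adjusted p = 1.94e-05), Cxcl5 9.74, 9.27 and 8.52 against 7.41, 7.35 and 7.64 (difference 1.71, SE 0.25) and Cxcl3 9.38, 9.11 and 8.45 against 7.23, 7.09 and 7.76 (difference 1.62, SE 0.23). The arrays did not overlap in any of the 3, which for Ppbp its choice required, and replicate 3 was the lowest anisomycin array in each. Cxcl2, at 0.97 (SE 0.26, adjusted p = 0.0271), was called, but the call was lost without any 1 of anisomycin replicates 1 and 2 and imiquimod replicates 1 and 2, with an adjusted p of up to 0.098. Cxcl1, at 0.50 (95% interval -0.02 to 1.03), was not called. In total 6 of 10 genes of the list were called higher with anisomycin and none higher with imiquimod, with a median of 0.69.

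Among 12 monocyte-attracting CC chemokines and their receptors 10 were called higher with anisomycin and 1, Ccl5 (-0.39), higher with imiquimod, with a median of 0.71. The atypical chemokine receptor gene Ccrl2 gave 8.02, 8.52 and 7.97 against 6.30, 6.04 and 6.76 (difference 1.81, SE 0.19), and the monocyte chemoattractant gene Ccl8 gave 8.47, 8.58 and 8.40 against 7.19, 7.45 and 7.46 (difference 1.11, SE 0.12). Both sets of anisomycin arrays lay wholly above the imiquimod arrays. The 10 became 6 without anisomycin replicate 2 or imiquimod replicate 2, and Ccl5 lost its call without anisomycin replicate 2 or 3 or imiquimod replicate 1 or 3. Lymphocyte and dendritic cell chemokines were mixed, with 5 of 24 called higher with anisomycin, led by the receptor genes Cxcr4 (1.85, SE 0.19) and Ccr7 (1.03, SE 0.21) and followed by the chemokine genes Cxcl14 (0.79), Cxcl16 (0.77) and Cxcl12 (0.49), and 4 higher with imiquimod. Those 4 included Ccl20, the B cell chemokine gene Cxcl13, at 6.07, 6.14 and 5.86 against 4.94, 4.86 and 4.53 (difference -1.25, SE 0.12), the receptor gene Ccr4 (-1.27, SE 0.16) and the fractalkine gene Cx3cl1 (-0.44, SE 0.08). Cxcl12 lost its call without anisomycin replicate 1 or 2 or any 1 imiquimod replicate (adjusted p up to 0.0725).

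Colony stimulating factors drive the making and survival of myeloid cells. Of 11 genes of these factors and their receptors, 7 were called higher with anisomycin and 1 higher with imiquimod. The 7 were the factor genes Csf1, Csf2 and Csf3 and the receptor genes Csf2ra, Csf2rb, Csf2rb2 and Csf3r. They became 4 without anisomycin replicate 2 or imiquimod replicate 1, when Csf2rb, Csf2rb2 and Csf3r lost their calls. Csf2rb and Csf3r lost theirs without other single arrays too. Csf1 read 9.23, 9.19 and 8.92 against 8.23, 8.33 and 8.32, and its imiquimod arrays overlapped the vehicle range of 8.13, 8.30 and 8.33 (difference 0.82, SE 0.09). Csf2, which supports granulocytes and macrophages, gave 5.06, 5.15 and 5.25 against 4.51, 4.36 and 4.53 (difference 0.69, SE 0.07). The exception was Il34, a keratinocyte ligand of the same receptor as Csf1 that maintains Langerhans cells. It read 8.43, 8.55 and 8.46 with imiquimod, 7.05, 7.06 and 7.49 with anisomycin and 9.22, 9.00 and 9.05 in vehicle ears, lowest with anisomycin in every array (difference -1.28, SE 0.12, adjusted p = 0.000196).

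Toll-like receptor genes were called on both sides, and 11.8% of the type I interferon list were called, against 20.4% of all genes. Tlr7, the imiquimod receptor gene, read 5.32, 5.66 and 5.50 against 5.31, 5.32 and 5.43 and was not called (difference 0.14, 95% interval -0.07 to 0.36). Of 24 Toll-like receptor and adaptor genes 6 were called higher with anisomycin, among them Tlr4 (0.98, SE 0.17), its co-receptor gene Cd14 (0.96, SE 0.20) and the ribosomal RNA sensor gene Tlr13 (0.94, SE 0.15), and 3 higher with imiquimod. The 3 were Cd180 (-0.43), the TLR7 chaperone gene Unc93b1 (-0.26) and the adaptor kinase gene Irak1 (-0.20), and the count was 1 without any single treated array other than anisomycin replicate 3. The type I interferon list holds interferon-stimulated genes and also interferon receptor genes. Of its 34 genes 3 were called higher with anisomycin and 1, Ifi27l2a, higher with imiquimod (-0.80, SE 0.14). The 3 were the interferon receptor genes Ifnar2 (0.62) and Ifnar1 (0.31) and the RNA sensor gene Ddx58 (0.51), and they became 1 without anisomycin replicate 2 or imiquimod replicates 1 or 2, and 6 without imiquimod replicate 3. Irf7, the interferon regulator downstream of TLR7, read 7.43, 7.21 and 8.45 with imiquimod and 7.22, 6.85 and 6.92 with anisomycin, and Ifit1 read 6.35, 6.10 and 7.62 against 6.81, 6.42 and 6.43. For both genes imiquimod replicate 3 was the highest of the 6 arrays and the other imiquimod arrays overlapped or lay near the anisomycin arrays, and neither was called (95% intervals -1.31 to -0.09 and -0.88 to 0.61). Of the 4 measured genes of the HIN-200 family of interferon-inducible DNA sensors, Ifi202b was apart, at 9.48, 9.38 and 8.92 with anisomycin, 5.44, 5.82 and 5.70 with imiquimod and 4.95, 4.90 and 4.76 in vehicle ears (difference 3.61, SE 0.15, adjusted p = 1.25e-06), though the family's members are near-identical in part. Ifi205 was also called (0.84), but not without imiquimod replicate 1. Unc93b1 lost its call without any 1 treated array (adjusted p up to 0.116), and Irak1 without anisomycin replicate 1 or 2 or any 1 imiquimod replicate (up to 0.121). Ifnar1 lost its call without anisomycin replicate 2 or imiquimod replicate 1 or 2 (adjusted p up to 0.0606), and Ddx58 without anisomycin replicate 1 or 2 or imiquimod replicate 1 or 2 or any 1 vehicle replicate (up to 0.155).

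Antimicrobial genes were divided, with 7 of 31 called higher with anisomycin and 12 higher with imiquimod and a median of -0.02. The beta-defensins split within the family. Defb3 read 11.35, 11.52 and 11.41 with imiquimod against 8.62, 8.82 and 8.83 with anisomycin (difference -2.67, SE 0.10, adjusted p = 8.85e-07) and Defb6 11.49, 11.55 and 11.65 against 8.60, 9.17 and 9.48 (difference -2.48, SE 0.30), whereas Defb4 read 10.63, 10.66 and 10.67 with anisomycin against 9.69, 9.69 and 9.54 with imiquimod (difference 1.01, SE 0.09, adjusted p = 0.000197). The Defb6 anisomycin arrays lay around the vehicle arrays, at 9.66, 8.56 and 9.62. S100a8 and S100a9, the calprotectin subunits of neutrophils and inflamed keratinocytes, were -1.13 (SE 0.12) and -1.28 (SE 0.10), with S100a9 at 11.95, 11.79 and 11.71 against 10.66, 10.61 and 10.34.

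Neutrophil markers, which include calprotectin, were called on both sides. Of 21 markers 7 were called higher with imiquimod and 4 higher with anisomycin, or 1 or 2 on the anisomycin side without any 1 treated array other than anisomycin replicate 3. The stefin genes Stfa3, at 10.45, 10.35 and 10.17 against 7.83, 8.31 and 8.64 (difference -2.06, SE 0.17), and Stfa2 (-0.93, SE 0.16) were on the imiquimod side with S100a8, S100a9 and the neutrophil surface gene Ly6g (-0.67, SE 0.13). The 4 on the anisomycin side were Trem1 (0.85), Mmp9 (0.77), Ltf (0.71) and the granulocyte growth factor receptor gene Csf3r (0.68). The neutrophil receptor gene Cxcr2 was not called, at 10.08, 10.09 and 9.52 against 9.57, 9.62 and 9.69 (difference 0.27, 95% interval -0.04 to 0.58). In whole-ear RNA, fewer cells of a type and less RNA per cell cannot be told apart. Trem1 lost its call without anisomycin replicate 1 or 2 or imiquimod replicate 1 or 2 (adjusted p up to 0.0773), and Ltf without imiquimod replicate 2 or 3 (up to 0.0509). Csf3r lost its call without anisomycin replicate 1 or 2 or any 1 imiquimod replicate (adjusted p up to 0.0948).

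Myeloid lectin receptors and macrophage and dendritic cell genes were more often on the anisomycin side. Of 20 C-type lectin and TREM genes 8 were called higher with anisomycin and 2, Clec4a1 (-0.45) and Clec12a (-0.35), higher with imiquimod. The dectin-2 gene Clec4n, a fungal mannan receptor, gave 9.32, 9.25 and 8.97 against 8.05, 8.02 and 7.91 (difference 1.19, SE 0.09), and Clec5a 7.31, 7.43 and 6.97 against 6.10, 6.22 and 6.22 (difference 1.06, SE 0.11). The 8 became 5 without anisomycin replicate 2 and 4 without imiquimod replicate 1 or 2. Monocyte and macrophage markers gave 9 of 24 higher with anisomycin, including the mannose receptor gene Mrc1 (0.69, SE 0.09), and 2 higher with imiquimod, or 1 without anisomycin replicate 2 or imiquimod replicate 2. These were the lysozyme gene Lyz2 (-0.47) and the F4/80 gene Adgre1, at 9.01, 8.85 and 8.96 against 7.98, 7.93 and 8.11 (difference -0.93, SE 0.08), and the defining macrophage gene Csf1r was not called, at -0.11 (95% interval -0.24 to 0.02). Dendritic cell genes gave 9 of 23 higher with anisomycin, led by the costimulation gene Cd80 (1.24, SE 0.21) and the integrin gene Itgax (1.14, SE 0.20), and 1 higher with imiquimod. That 1 was Cd207, langerin of Langerhans cells (-0.39, SE 0.10), a call lost without any 1 treated array other than anisomycin replicate 3. None of 10 MHC class II presentation genes was called in limma, 1 had an unadjusted p under 0.05, and the median difference of that list was 0.02. Lyz2 lost its call without anisomycin replicate 2 or imiquimod replicate 1 or 2 (adjusted p up to 0.0619).

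T cell genes gave 7 of 31 called higher with anisomycin and 2, the cytotoxic cell genes Nkg7 (-0.71) and Gzma (-0.35), higher with imiquimod. The 7 became 4 without anisomycin replicate 1, 3 without imiquimod replicate 1 and 2 without anisomycin replicate 2 or imiquimod replicate 2. The IL-7 receptor gene Il7r read 7.56, 7.44 and 7.12 with anisomycin against 6.15, 6.27 and 6.50 with imiquimod (difference 1.07, SE 0.14), and its imiquimod arrays were within or near the vehicle range of 6.50, 6.13 and 6.35. The T cell receptor complex gene Cd3e was not called (-0.12, 95% interval -0.41 to 0.16). Several Skint genes, a family whose founding member selects epidermal gamma delta T cells, were lower with anisomycin. Skint9 read 6.01, 6.39 and 6.93 with anisomycin, 7.40, 7.68 and 8.10 with imiquimod and 9.89, 9.13 and 9.43 in vehicle ears (difference -1.28, SE 0.27), and Skint11 5.38, 5.61 and 6.04 against 6.48, 6.67 and 6.75 (difference -0.96, SE 0.16). With Skint3 (-1.04), Skint10 (-1.04) and Il17f they made 5 of 18 genes of the gamma delta list called higher with imiquimod, none being called higher with anisomycin, and the 5 became 3 without anisomycin replicate 2 or imiquimod replicate 2 or 3. Skint genes are close copies of each other, and their single values are uncertain. Skint3 lost its call without anisomycin replicate 2 or imiquimod replicate 2 or 3 (adjusted p up to 0.0781), and Skint10 without anisomycin replicate 1 or 2 or imiquimod replicate 2 or 3 (up to 0.0596).

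In the epidermis, genes of the upper layers were called on both sides, and several basal layer genes were higher with anisomycin. The barrier list had 23.7% of its genes called, near the 20.4% of all genes, and the basal list 53.3%. Krt2, a keratin of the upper epidermis, read 11.86, 12.13 and 12.21 with imiquimod, 9.65, 10.67 and 11.09 with anisomycin and 12.41, 12.08 and 12.27 in vehicle ears (difference -1.60, SE 0.30, adjusted p = 0.00617). The anisomycin arrays were widely spread, replicate 1 was lowest, and all lay below the other 6 arrays. The transglutaminase gene Tgm5 gave 8.49, 8.53 and 8.57 against 7.16, 7.45 and 7.82 (difference -1.05, SE 0.14). Lor, loricrin, was at -0.91 (SE 0.25, adjusted p = 0.0318), a call lost without any 1 of anisomycin replicate 2, the 3 imiquimod replicates and vehicle replicate 3, with an adjusted p of up to 0.0996. Of 38 barrier genes 6 were called higher with imiquimod and 3, Krt77 (0.99), the protease inhibitor gene Spink5 (0.61) and Tchhl1 (0.43), higher with anisomycin. The 6 became 3 without anisomycin replicate 2 or imiquimod replicate 3, 2 without imiquimod replicate 1 or 2 and 10 without vehicle replicate 2, and the 3 became 1, 5 and 6 without imiquimod replicate 1, vehicle replicate 1 and vehicle replicate 2. Krt77 lost its call without anisomycin replicate 1 or any 1 imiquimod replicate (adjusted p up to 0.0676), and Spink5 without imiquimod replicate 1 (up to 0.054). Tchhl1 lost its call without imiquimod replicate 3 (adjusted p up to 0.0529).

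The basal genes gave 7 of 15 called higher with anisomycin and 1, Dlk2 (-0.23), higher with imiquimod, a call lost without any 1 of the 3 anisomycin replicates, imiquimod replicates 1 and 3 and vehicle replicate 3. The integrin gene Itga3 read 10.34, 10.23 and 9.95 against 9.06, 9.04 and 8.98 (difference 1.15, SE 0.12), and the laminin-332 chain genes Lamb3 and Lama3 were 0.99 (SE 0.08) and 0.81 (SE 0.17) higher. For Lama3 the anisomycin arrays, at 8.56, 8.29 and 9.06, lay around the vehicle values of 8.79, 8.65 and 8.87, and the imiquimod arrays, at 7.65, 7.89 and 7.94, lay below all of them. The basal keratin gene Krt14 was not called (0.13, 95% interval -0.03 to 0.28).

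Keratins of the stressed epidermis were close between the treatments. Krt6b read 12.91, 12.79 and 12.81 against 12.68, 12.74 and 12.66 and Krt16 12.42, 12.37 and 12.41 against 12.21, 12.18 and 12.05, all far above vehicle at 5.66, 4.66 and 4.63 and 5.30, 5.72 and 5.42. Every anisomycin array lay above every imiquimod array, but neither gene was called, with differences of 0.14 (95% interval -0.37 to 0.66) and 0.25 (95% interval 0.03 to 0.48). Of 29 genes of the regenerative epidermis list 6 were called higher with anisomycin and 7 higher with imiquimod. The former held the injury keratin genes Krt17 (0.53, SE 0.13) and Krt6a (0.44, SE 0.12) and were led by the late envelope gene Lce3f (1.54, SE 0.14). They became 3 without any 1 treated array other than anisomycin replicate 3 and 12 without vehicle replicate 2. The latter were led by Sprr2b and the serpin gene Serpinb3a, which read 8.18, 8.23 and 8.09 against 6.43, 6.00 and 6.59 (difference -1.83, SE 0.15). Lce3, Sprr2 and Serpinb3 genes are families of near-identical copies. Krt17 lost its call without anisomycin replicate 1 or 2 or any 1 imiquimod replicate (adjusted p up to 0.0685), and Krt6a without anisomycin replicate 1 or 2 or any 1 imiquimod replicate (up to 0.088).

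**Figure D5:**
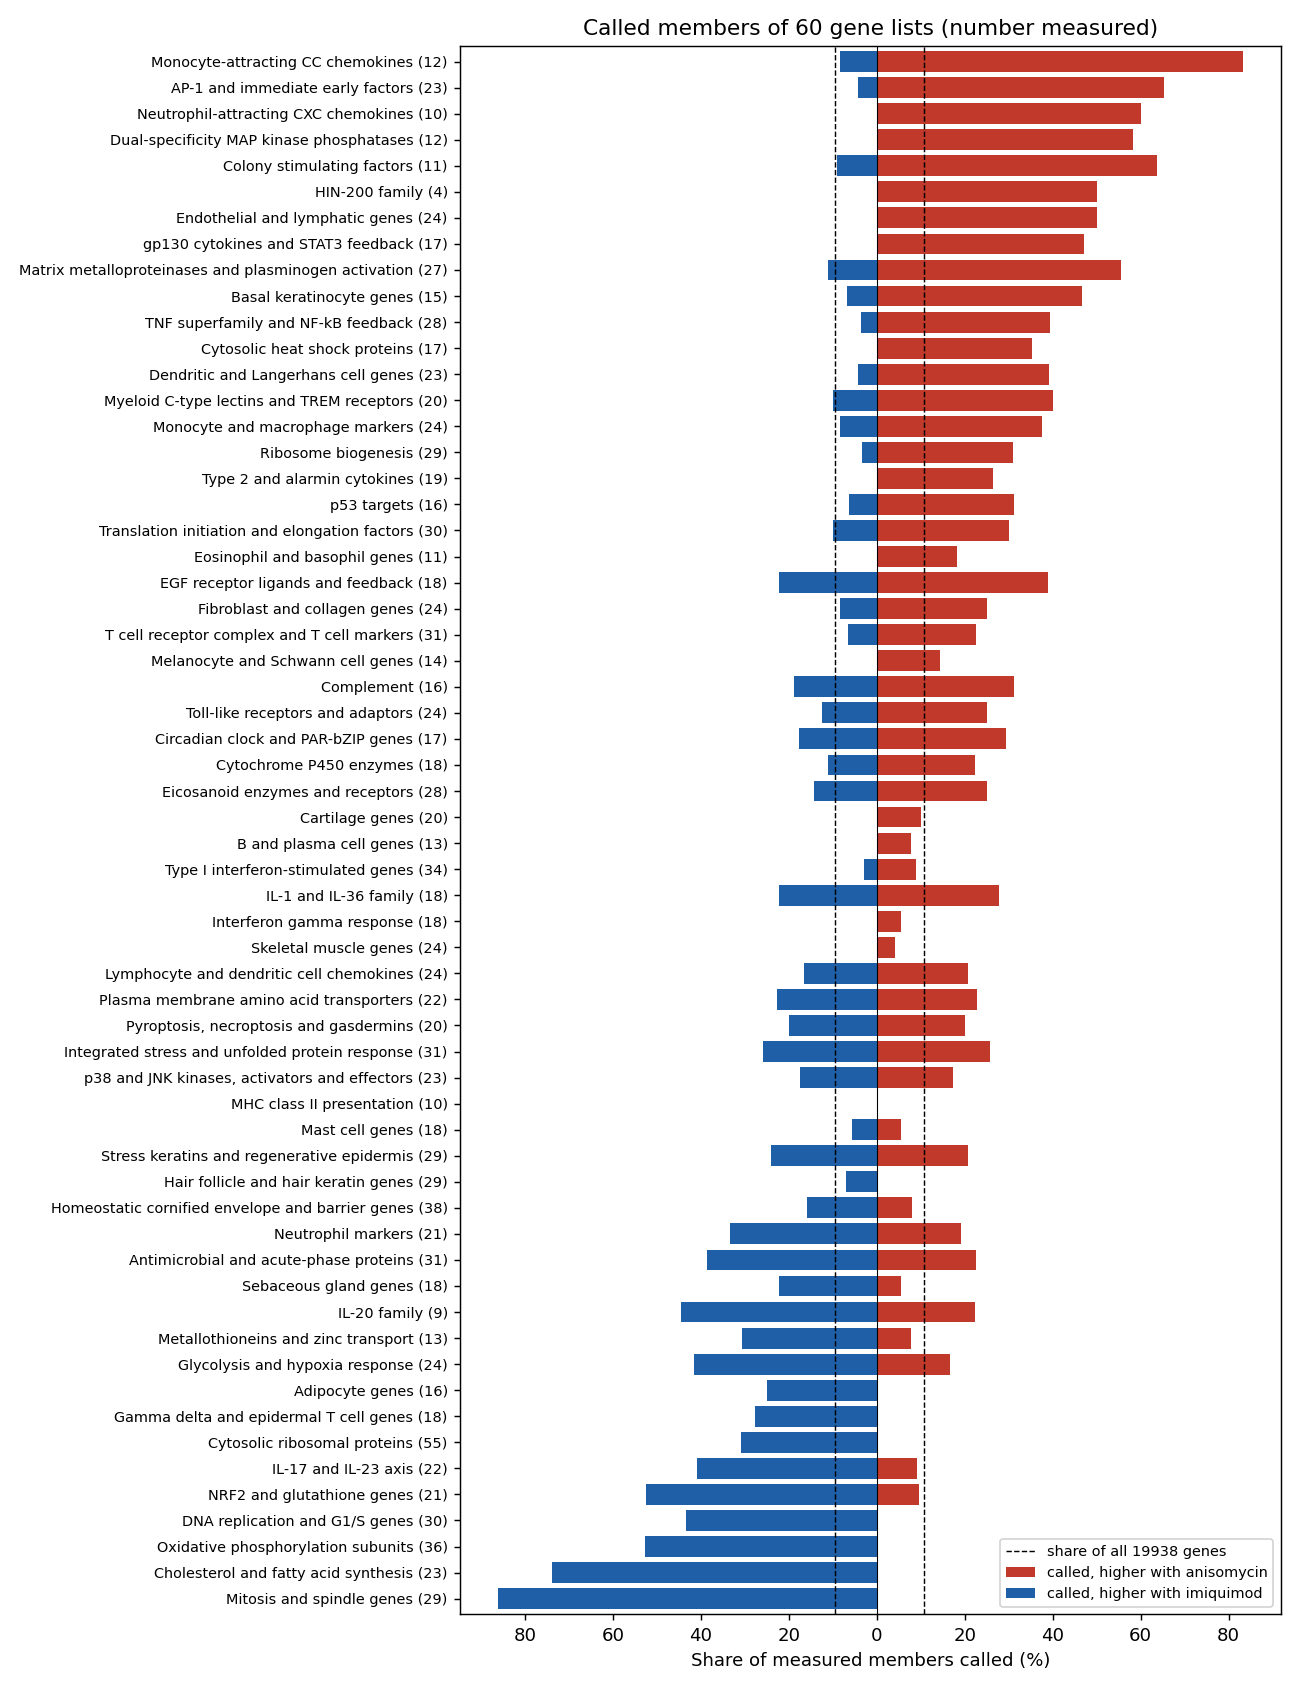
Share of the measured members of 60 gene lists that were called higher with anisomycin (red, to the right) or higher with imiquimod (blue, to the left), in percent; the number measured is in brackets and dashed lines give the share of all 19938 genes, 10.8% and 9.59%. AP-1, phosphatase and chemokine lists lie at the top, and mitosis, cholesterol synthesis and oxidative phosphorylation lists at the bottom.

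Many proliferation, lipid synthesis and mitochondrial genes were higher with imiquimod. Of 29 mitosis and spindle genes 25 were called higher with imiquimod and none higher with anisomycin, with a median difference of -0.67. Against vehicle the list median was 0.98 with anisomycin and 1.57 with imiquimod. Kif23, a motor protein of cytokinesis, read 8.06, 7.98 and 7.98 with imiquimod and 6.69, 7.07 and 7.37 with anisomycin, with vehicle at 6.84, 6.58 and 6.81 (difference -0.96, SE 0.15, adjusted p = 0.00261). Ccna2, cyclin A2, gave 9.57, 9.50 and 9.44 against 8.01, 8.63 and 8.95 (difference -0.97, SE 0.22), a call lost without imiquimod replicate 1 at an adjusted p of 0.0521. In both genes anisomycin replicate 3 was nearest to imiquimod. The 25 became 16 and 14 without anisomycin replicates 1 and 2, and 10, 9 and 10 without imiquimod replicates 1, 2 and 3.

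DNA replication and G1/S genes gave 13 of 30 higher with imiquimod and none higher with anisomycin, with a median of -0.34. The thymidylate synthase gene Tyms read 8.97, 8.84 and 8.95 against 7.92, 8.39 and 8.49 (difference -0.65, SE 0.14), and E2f2, an activator of S phase genes, gave 7.08, 7.26 and 7.23 against 6.34, 6.53 and 6.57 (difference -0.71, SE 0.11). Both groups of arrays were separate for each. The 13 became 8 without anisomycin replicate 1 or 2 or imiquimod replicate 3, and 7 without imiquimod replicate 1.

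Sterol and fatty acid synthesis genes gave 17 of 23 higher with imiquimod and none higher with anisomycin, with a median of -0.57. Nsdhl, an enzyme of late cholesterol synthesis, read 9.35, 9.55 and 9.64 against 8.46, 8.76 and 8.91 (difference -0.80, SE 0.13), and Acaca, the enzyme that commits carbon to fatty acids, 8.95, 9.14 and 9.12 against 8.05, 8.27 and 8.55 (difference -0.78, SE 0.12). For Nsdhl the anisomycin arrays overlapped the vehicle range of 8.88, 8.53 and 8.65, and for Acaca they lay below the vehicle arrays at 8.83, 8.77 and 8.65. The 17 became 11 without anisomycin replicate 1 or 2 or imiquimod replicate 1, 9 without imiquimod replicate 2 and 10 without imiquimod replicate 3. Sebaceous gland genes, several of which make lipid, lay beside them with 4 of 18 called higher with imiquimod, or 9 without anisomycin replicate 3 and 2 without imiquimod replicate 3, and 1 higher with anisomycin. The latter was the lipid droplet gene Plin2 (0.53), whose call was lost without anisomycin replicate 1 or 2 or imiquimod replicate 1 or 2. The gland gene Acsbg1, an acyl-CoA synthetase, read 9.65, 9.65 and 9.77 against 8.25, 8.28 and 8.66 and 10.36, 10.04 and 10.31 in vehicle ears (difference -1.29, SE 0.12), and the others were Elovl3 (-1.60), Fa2h (-1.28) and Scd3 (-0.91), all enzymes of lipid synthesis. The part of gland content in the lipid gene difference was not tested. Elovl3 lost its call without imiquimod replicate 3 (adjusted p up to 0.0562), and Fa2h without anisomycin replicate 1 or 2 or any 1 imiquimod replicate or vehicle replicate 1 or 3 (up to 0.125).

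Oxidative phosphorylation subunits gave 19 of 36 higher with imiquimod and none higher with anisomycin, with a median of -0.24. Ndufa4, a subunit of the respiratory chain, read 10.10, 9.99 and 10.08 against 9.05, 9.36 and 9.56, with vehicle at 9.07, 8.91 and 8.97 (difference -0.73, SE 0.11), and the ATP synthase gene Atp5o 9.99, 10.00 and 9.95 against 9.31, 9.42 and 9.44 (difference -0.59, SE 0.06). The imiquimod arrays stood above the other 6 arrays for both. The 19 became 12 and 11 without anisomycin replicates 1 and 2, 9, 11 and 11 without imiquimod replicates 1, 2 and 3, and 12 after cyclic loess normalization. Glycolysis and hypoxia genes gave 10 of 24 higher with imiquimod, led by the oxygen sensor gene Egln3, at 10.01, 10.02 and 9.76 against 8.39, 8.59 and 8.81 (difference -1.34, SE 0.12), and Pdk1, which turns pyruvate away from mitochondria (-0.83, SE 0.09), while 4 were higher with anisomycin, namely Adm, Pfkfb4 (0.60), Hif1a (0.32) and Ndrg1 (0.29). Hif1a lost its call without anisomycin replicate 1 or 2 or any 1 imiquimod replicate or vehicle replicate 3 (adjusted p up to 0.115).

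All called vessel genes were higher with anisomycin. Of 24 endothelial and lymphatic genes 12 were called higher with anisomycin and none higher with imiquimod, with a median of 0.46, and the 12 became 7 without anisomycin replicate 2 and 19 without vehicle replicate 2. Cdh5, the endothelial cadherin, read 8.74, 8.53 and 8.08 with anisomycin against 7.33, 7.54 and 7.43 with imiquimod, the latter within or near the vehicle range of 7.43, 7.76 and 7.54 (difference 1.02, SE 0.16). Icam1, a leukocyte adhesion receptor that keratinocytes and vessels both make, gave 9.51, 9.35 and 9.11 against 8.30, 8.03 and 8.28 (difference 1.12, SE 0.12), and Pdpn, podoplanin of lymphatic vessels and activated keratinocytes, was 1.28 higher (SE 0.13). The defining endothelial gene Pecam1 was not called, at 0.43 (95% interval 0.12 to 0.74, adjusted p = 0.0552), although its arrays did not overlap. Ptgs2, cyclooxygenase 2, whose prostaglandins act on vessels and nerves, read 11.89, 11.92 and 11.55 against 10.05, 9.58 and 10.49 (difference 1.75, SE 0.20).

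Among the deeper ear tissues, skeletal muscle (4.17%) and cartilage genes (10%) gave a smaller share of calls than the 20.4% of all genes. Fibroblast and collagen genes (33.3%) gave a larger share, and adipocyte genes (25%) a share near that of all genes. Of 24 skeletal muscle genes 1, Tnnc1 (0.47), was called, with a median difference of 0.00, while the list medians against vehicle were -1.70 with anisomycin and -1.78 with imiquimod. Of 20 cartilage genes 2 were called, both higher with anisomycin. These were Sox9, which hair follicle and other epithelial cells also make, at 10.90, 10.54 and 10.36 against 8.82, 8.99 and 8.95 with vehicle between at 9.59, 9.82 and 9.50 (difference 1.68, SE 0.13), and the lubricin gene Prg4 (1.57, SE 0.28). Of 24 fibroblast and collagen genes 6 were called higher with anisomycin, led by the receptor gene Pdgfra (0.82, SE 0.13), and 2, Postn (-0.49) and Pi16 (-0.36), higher with imiquimod, with a median of 0.03. The 6 became 3 without anisomycin replicate 1 or 2 or imiquimod replicate 1, and the 2 became 1 without anisomycin replicate 2, imiquimod replicate 1 or vehicle replicate 3 and 0 without anisomycin replicate 1 or imiquimod replicate 2 or 3. Tnnc1 lost its call without any 1 of the 6 treated arrays, and 2 muscle genes were called without vehicle replicate 2. Of 16 adipocyte genes 4 were called higher with imiquimod and none higher with anisomycin, namely Cd36 (-0.56), Car3 (-0.55), Dgat2 (-0.53) and Fabp4 (-0.51), and the 4 became 2 without anisomycin replicate 1, any 1 imiquimod replicate or vehicle replicate 1, and 7 without vehicle replicate 3. Postn lost its call without anisomycin replicate 1 or 2 or imiquimod replicate 2 or 3 or vehicle replicate 3 (adjusted p up to 0.116), and Pi16 without anisomycin replicate 1 or any 1 imiquimod replicate (up to 0.0921). Car3 lost its call without anisomycin replicate 1 or 2 or any 1 imiquimod replicate or vehicle replicate 1 (adjusted p up to 0.124), and Fabp4 without anisomycin replicate 1 or 3 or any 1 imiquimod replicate or vehicle replicate 1 (up to 0.128).

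Genes of lipid mediators were called on both sides. Of 28 eicosanoid genes 4 were called higher with imiquimod, namely the lipoxygenase genes Alox8 and Alox12, the phospholipase gene Pla2g2e (-0.51) and the prostaglandin E synthase gene Ptges (-0.40). Alox12, whose product oxidises arachidonic acid in epidermis and platelets, read 7.54, 7.60 and 7.74 with imiquimod against 6.33, 6.02 and 6.59 with anisomycin (difference -1.31, SE 0.16). The 7 called higher with anisomycin were prostaglandin genes, Ptgs2 first, and became 4 without anisomycin replicate 1 or 2 or imiquimod replicate 2 or 3 and 3 without imiquimod replicate 1. Of 18 cytochrome P450 genes 2 were called higher with imiquimod, Cyp2b19, a keratinocyte arachidonic acid epoxygenase, at 9.97, 10.12 and 10.24 against 7.92, 8.55 and 9.08 (difference -1.59, SE 0.25), and Cyp2j6 (-1.15). The 4 higher with anisomycin were the vitamin D activating gene Cyp27b1 (0.89), Cyp4f18 (0.83), Cyp1b1 (0.79) and the retinoic acid degrading gene Cyp26b1 (0.54). Ptges lost its call without anisomycin replicate 1 or imiquimod replicate 3 (adjusted p up to 0.0573), and Cyp27b1 without anisomycin replicate 2 or imiquimod replicate 1 (up to 0.0537). Cyp1b1 lost its call without anisomycin replicate 2 (adjusted p up to 0.0516).

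Cell death, metal and amino acid lists were mixed. The 20 pyroptosis and necroptosis genes gave 4 on each side, with the gasdermin gene Gsdmc2 (-1.09), a member of a cluster of close copies, Nlrp10 (-1.10), Pycard and Casp1 higher with imiquimod and Nlrp3, Ninj1 (0.36), Ripk3 (0.33) and Mlkl (0.27) higher with anisomycin. Of 13 metallothionein and zinc genes 4 were higher with imiquimod, among them the epidermal metallothionein gene Mt4 (-1.16, SE 0.31) and the exporter gene Slc30a1 (-0.53), with Slc39a6 (-0.49) and Slc30a4 (-0.38) as the others. The 1 higher with anisomycin, or 2 without vehicle replicate 1 or 2, was the zinc importer gene Slc39a14 (1.04, SE 0.20), which held 1 value in all 3 imiquimod arrays. Of 22 amino acid transporter genes 5 were called on each side. Slc6a14 (1.05, SE 0.22) led Slc38a1 (0.53), Slc7a7 (0.44), Slc7a8 (0.44) and Slc38a2 (0.29) on the anisomycin side, and Slc7a11 and the glycine transporter gene Slc6a9 (adjusted p = 0.00739) led Slc7a5, Slc36a1 (-0.62) and Slc1a4 (-0.34) on the other. Mlkl lost its call without anisomycin replicate 1 or 2 or imiquimod replicate 1 or 2 (adjusted p up to 0.0822), and Mt4 without anisomycin replicate 1 or 2 or imiquimod replicate 2 or 3 (up to 0.102). Slc38a2 lost its call without anisomycin replicate 1 or 2 or imiquimod replicate 2 (adjusted p up to 0.0699), and Slc1a4 without anisomycin replicate 2 or imiquimod replicate 2 or 3 (up to 0.067).

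Complement gave 5 of 16 higher with anisomycin, or 2 without any 1 treated array other than anisomycin replicate 3, and 3 higher with imiquimod. The former were Itgax, the anaphylatoxin receptor genes C5ar1 (0.67) and C3ar1 (0.39), Masp1 (0.34) and C1qb (0.20), and the latter C1ra (-0.53), C2 (-0.31) and the inhibitor gene Serping1 (-0.28). Of 17 clock genes 5 were higher with anisomycin, led by the repressor gene Nr1d1 (0.98, SE 0.14) over Nfil3 (0.78), Bhlhe40 (0.67), Per1 (0.42) and Clock (0.23). The 3 higher with imiquimod, or 1 without anisomycin replicate 2 or imiquimod replicate 2 or 3, were Rora (-0.90), Hlf (-0.66) and Cry2 (-0.31). The labels give no hour of tissue collection. C3ar1 lost its call without anisomycin replicate 1 or 2 or any 1 imiquimod replicate or any 1 vehicle replicate (adjusted p up to 0.143), and Masp1 without anisomycin replicate 1 or 2 or any 1 imiquimod replicate (up to 0.0892). C1qb lost its call without anisomycin replicate 1 or 2 or any 1 imiquimod replicate (adjusted p up to 0.131), and Per1 without anisomycin replicate 1 (up to 0.0628). Clock lost its call without anisomycin replicate 2 or 3 or any 1 imiquimod replicate (adjusted p up to 0.0805), and Hlf without anisomycin replicate 1 or 2 or imiquimod replicate 2 or 3 or vehicle replicate 3 (up to 0.109). Cry2 lost its call without anisomycin replicate 2 or imiquimod replicate 2 or 3 (adjusted p up to 0.102).

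Lists of minor cell types, hair and the interferon gamma response had 5.56% to 18.2% of their genes called, against 20.4% of all genes. The eosinophil and basophil list (18.2%) and the melanocyte and Schwann cell list (14.3%) were called with anisomycin only. Each share rests on 2 called genes, so it cannot be set apart from the 10.8% of all genes on that side. Of 18 mast cell genes 1 was called on each side, Kit (0.37) higher with anisomycin and Slc29a1 (-0.27) higher with imiquimod. Neither call was kept without anisomycin replicate 1 or imiquimod replicate 1 or 2, that of Kit also not without anisomycin replicate 2, and that of Slc29a1 also not without imiquimod replicate 3 or vehicle replicate 1. The eosinophil genes Siglecf (0.40) and Ccr3 (0.38) were the 2 called of 11 eosinophil and basophil genes, both higher with anisomycin. Of 13 B and plasma cell genes the 1 called was Xbp1 (0.32), a secretory stress factor that other cells also make, and it lost its call without any 1 treated array other than anisomycin replicate 3. Of 14 melanocyte and Schwann cell genes Mitf (0.47) and Pmp22 (0.34) were called higher with anisomycin, and of 29 hair genes Sox21 (-0.79) and Foxn1 (-0.47) were called higher with imiquimod, with 1 left without imiquimod replicate 2. Of 18 interferon gamma response genes 1, the transcription factor gene Irf1 (0.31), was called higher with anisomycin, or none without anisomycin replicate 1 or 2 or imiquimod replicate 2 and 2 without imiquimod replicate 3. Foxn1 lost its call without imiquimod replicate 1 or 2 (adjusted p up to 0.0526).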

How the data were processed

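The labels describe 9 RNA samples of whole ear skin, each run on an Affymetrix mouse gene array. The deposited table holds the authors' log2 expression values, made with RMA per the submitters' processing notes, with the version and genome build not given in the sources used here; that the scale is log2 was read from the range, 2.385 to 13.97. RMA makes the arrays' distributions alike, so a shift of most genes would not be seen, and it compresses differences of dim genes. Background signal is not in the table, and precision rests on the number of arrays.

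Of 35556 rows, 21789 had 1 gene symbol, 1621 several and 12146 none in the platform's annotation. Only rows with 1 symbol were used, and for the 999 genes with several probe sets the one with the highest mean over all 9 arrays was kept, leaving 19938 genes. A group-means model over all 9 arrays was fitted with limma (version 3.58.1, R version 4.3.3), after tests on simulated data, and p-values were adjusted by Benjamini-Hochberg over all genes. The simulated data had the same spread in every group and no tied values. They therefore do not show how the fit handles the wider spread of the anisomycin arrays. Genes at an adjusted p under 0.05 were called. SE and 95% intervals come from this fit, n is 3 arrays in each group, and differences are anisomycin minus imiquimod. The variance of a gene is shared by all 3 groups, vehicle included. Where vehicle arrays were tight, SE and intervals are narrower than the treated arrays alone would give. An exact test of 3 against 3 cannot go below p = 0.1.

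The named genes were the 15 largest called differences on each side with arrays that did not overlap, in each list the 4 largest differences among called members, and a fixed set of cytokine, keratin and stress genes. Genes named beyond this, to spell out small counts or as uncalled cell type markers, were chosen after their values were seen. The comparison, the members and the lists were chosen with earlier results of these data known. The labels do not say whether replicate numbers pair the samples. Deviations from group means of same-numbered anisomycin and imiquimod arrays correlated over genes at 0.196, -0.0202 and 0.0682. Those of differently numbered arrays correlated at -0.182 to 0.123. With 3 arrays per group these values cannot settle whether a number marks a shared litter, cage or day. Alternatives were other normalizations, filters, probe set rules, variance models and subsets of arrays.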

Additional observations from a re-analysis of the deposited data

How the results depend on the processing

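Of the 228 called genes among the 238 named ones, 184 kept their call under every one of the settings run and 44 lost it under at least 1, while none changed direction. Leaving out 1 array gave 2523 to 4766 called genes in place of 4059, with 1320 to 2562 higher with anisomycin and 1061 to 2214 higher with imiquimod; those at least 2-fold higher numbered 151 to 260 and 84 to 212. Array weights raised the calls to 8557 (4536 and 4021). Taking the spread from the anisomycin and vehicle arrays alone, a setting chosen after seeing the data, lowered them to 2502 (1403 and 1099). Trended robust variances, quantile or cyclic loess normalization, median centring, centring on stable genes, leaving out the dimmest 30%, the mean of probe sets, all rows and the 6 treated arrays alone gave 3910 to 4616. The share of calls higher with anisomycin was 52.9% and ranged from 48.9% to 58.6%. Adding the replicate block gave 3734 calls (1976 and 1758), although the labels do not say whether the replicate numbers pair the samples. The table carries no background signal, so for genes with low values in all arrays, such as Il17a, a level near background and no difference cannot be told apart.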
